A study of Drosophila melanogaster with 2 samples.

Results

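Small nucleolar RNAs (snoRNAs) guide the chemical modification and cleavage of ribosomal RNA in the nucleolus, where ribosome subunits are assembled. Box C/D snoRNAs guide 2'-O-methylation and box H/ACA snoRNAs guide pseudouridylation, each in a particle with its own core proteins, while Cajal body RNAs (scaRNAs) guide the same reactions on spliceosomal RNAs. In flies most of these RNAs lie in introns of host genes, some of which (the Uhg genes) are noncoding. RNase MRP and RNase P are RNA-protein enzymes that cleave precursors of ribosomal RNA and of transfer RNA. In the growing ovary, nurse cells make the large ribosome store of the egg.

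The genes described here were chosen by symbol and then kept where the deposited FPKM was above 0 in at least 1 of 2 libraries. FPKM is the number of sequenced fragments scaled by transcript length and library size. The symbols were all snoRNA, scaRNA, RNase P RNA, RNase MRP RNA and Uhg genes, plus 18 nucleolar or RNase P and MRP protein genes. They matched 330 of the 17720 genes in the tables, and 41 were kept: 18 small RNAs, 6 Uhg genes and 17 protein genes. Of the 18 protein symbols, Nop140 matched no gene. The member nearest the minimum was snoRNA:Or-ACA9, with an FPKM of 0.45 in the Lsd1-RIP library, and the members left out stood at 0 in both.

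The study precipitated RNA with an antibody from ovary lysate and sequenced it (RNA immunoprecipitation, RIP). In the Lsd1-RIP library the antibody was raised against Lsd1, a histone demethylase of chromatin silencing. In the IgG-RIP library, the control, the antibody named is anti-GFP, and the same lysate was used for both. Both came from wild-type Oregon-R Drosophila melanogaster females at most 12 hours after eclosion, about 200 for each RIP. There was 1 library per group, so the groups could not be tested against each other, and no input library was analysed here.

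Approximate fragments were derived from the deposited bounds, and these came to 2494964 in the Lsd1-RIP and 2661721 in the IgG-RIP library. Ovary markers were present: 6 of 6 germline and 4 of 4 follicle cell genes had a mean FPKM of 1 or more. Germline genes summed to 238 in the Lsd1-RIP and 128 in the IgG-RIP library, and follicle cell genes to 261 in the Lsd1-RIP and 207 in the IgG-RIP library. An FPKM of 1 was also passed by 3 of 3 muscle genes, with a summed FPKM of 87.7 in the Lsd1-RIP and 103 in the IgG-RIP library. The 2 fat body markers summed to 0.09 in the Lsd1-RIP and 0.07 in the IgG-RIP library, and the gut and gland markers to 0 in the Lsd1-RIP and 0.02 in the IgG-RIP library, with Sgs3 at 0 in both. Of the 3 genes listed for testis, bam passed a mean FPKM of 1 and Mst87F was at 0. The lysate came from ovaries, so bam is not read as a sign of testis tissue. In bulk lysate, fewer cells of a type and less RNA per cell cannot be told apart, nor can the antibody and the library, each antibody having 1 library.

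Genes were compared by the log2 ratio, in which 1 was added to each FPKM before the Lsd1-RIP value was divided by the IgG-RIP value. On this scale differences of weakly detected genes come out too small. Over 6025 genes with a mean FPKM of 1 or more, its median was 0.32, a 1.25-fold offset, and the middle 50% of genes lay between 0.13 and 0.52. Members are therefore read against 0.32. With that offset removed, 62 genes were at least 2-fold higher and 63 lower, against 128 and 42 with FPKM as deposited.

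Of the 11 small RNA genes with enough fragments to compare, 6 had a ratio interval wholly above the offset, or 4 of 9 RNAs with the U3 copies taken as 1. The share of all genes with such an interval was not computed, so these counts are not read as a result about the small RNAs. U3, the box C/D snoRNA that acts in pre-rRNA cleavage, was 2.75-fold higher over its summed copies, RNase MRP RNA 1.69-fold higher and the pseudouridylation guide snoRNA:Psi28S-291 1.63-fold higher. RNase P RNA and the spliceosomal guide scaRNA:MeU5-C46 lay below the offset. The interval of RNase P RNA took in the offset, and that of scaRNA:MeU5-C46 lay wholly below it. The noncoding Uhg host genes and the mRNAs of nucleolar proteins mostly lay at or below the offset, but every Uhg gene had an interval that took it in. The RNase P and MRP protein gene Rpp20 was 2.27-fold higher, a log2 ratio of 1.05 that became 0.72, under 2-fold, with the offset removed.

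Whether a small RNA was listed at all followed the length of its annotated locus. The shortest locus with 5 or more fragments in each library had 168 nt, that of snoRNA:U3:9B, which RefSeq gives as 213 nt. All 14 annotated RNAs of that length or more had an FPKM above 0, and none of the 116 under 100 nt or the 146 from 100 to 149 nt did. In between, 4 of 30 were listed. The limit of 168 nt was drawn from these same values. The median annotated length was 132 nt, and 288 of 306 small RNAs had no value in either library. None of the 103 snoRNAs named for a methylation site was listed, and their median length was 81 nt. Of the 109 named for a pseudouridylation site, whose median was 140 nt, 3 were listed. A value of 0 is therefore not read as absence of the RNA, and the part of length in these zeros was not tested.

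The FPKM that a single fragment stood for also went with length. In the Lsd1-RIP library 1 fragment stood for an FPKM of 539 in snoRNA:SC35-a (153 nt), 143 in scaRNA:PsiU1-6 (159 nt), 106 in snoRNA:lola-b (161 nt) and 36.1 in snoRNA:lola-c (171 nt). At 220 nt it stood for 3.78 (snoRNA:Psi28S-291), and at 382 nt for 0.42 (RNaseMRP:RNA). A high FPKM of a short RNA can thus rest on few fragments, and levels of RNAs of unlike length are not comparable by FPKM. By FPKM, U3 made up 76.8% of the 11 RNAs with 5 or more fragments in each library in the Lsd1-RIP, and 65.3% in the IgG-RIP. By approximate fragments it made up 14.8% (Wilson 95% interval 13.8% to 15.9%) in the Lsd1-RIP library and 8.86% (7.91% to 9.92%) in the IgG-RIP library. These intervals cover counting error only, since copies made in PCR are not independent molecules.

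**Figure D1:**
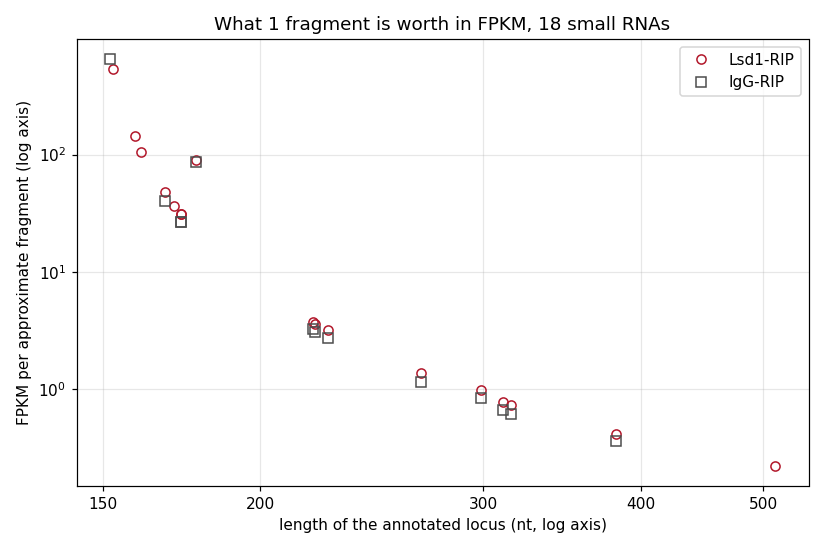
FPKM per approximate fragment (y axis, log) against the length of the annotated locus in nt (x axis, log) for the 18 small RNAs listed above 0, with circles for the Lsd1-RIP and squares for the IgG-RIP library. The value falls steeply with length, from 648 at 152 nt in the IgG-RIP library to 0.22 at 511 nt in the Lsd1-RIP library; scaRNA:PsiU2-55 (178 nt), whose fragments are not whole numbers, lies above the others of like length.

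Of the 18 listed RNAs, 7 had under 5 fragments in a library and are set apart. 4 were listed in the Lsd1-RIP library on 1 fragment each and at 0 in the IgG-RIP library: snoRNA:SC35-a, snoRNA:lola-b, snoRNA:lola-c and scaRNA:PsiU1-6. snoRNA:Or-ACA9 had 1.99 fragments in the Lsd1-RIP library and none in the IgG-RIP library. snoRNA:Psi18S-531 was the opposite case, at 0 in Lsd1-RIP and at an FPKM of 648 on 1 fragment in IgG-RIP. scaRNA:PsiU2-55, a guide for U2 snRNA, had 4.40 fragments in the Lsd1-RIP and 1.31 in the IgG-RIP library, and its log2 ratio of 1.79 had an interval of -1.06 to 4.65. None of the 7 supports a comparison.

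The other 11 RNAs had a median log2 ratio of 0.75, and 8 of 11, among them the 3 U3 copies, lay above the all-gene median of 0.32. For snoRNA:CG32479-a and snoRNA:Psi28S-2566, which are among the 8, the interval took in that median. The deposited intervals of these RNAs did not overlap between the libraries for 6 of 11. The U3 copies make up 3 of these 6, and they are read below as 1 observation. Over all 5920 genes with a mean FPKM of 1 or more and 5 or more fragments in each library, 37.7% had intervals that did not overlap. At least 2-fold higher were 3 of the 11, all of them U3 copies and so 1 RNA. Over all 40 members with a mean FPKM of 1 or more, 9 were at least 2-fold higher, against 2.12% of all 6025 genes, and 1 was at least 2-fold lower, against 0.697%. Of these 10 members, 6 are among the RNAs with under 5 fragments. With 5 or more fragments in each library, 4 of 34 members were higher, against 1.62% of 5920 genes. They were the U3 copies, read as 1 RNA, and Rpp20. With the offset removed the U3 copies stayed past 2-fold, at 1.25 for snoRNA:U3:9B and 1.12 for each 54A copy, and Rpp20 did not. In that count no member was lower, against 0.101%. The members were chosen with these values known, so nothing is read from the difference between the shares.

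U3 is annotated as 3 genes. snoRNA:U3:9B (FBgn0065046, X:10348170-10348337 on dm6) had an FPKM of 2646 (interval 1933 to 3359) in the Lsd1-RIP library and 890 (511 to 1270) in the IgG-RIP library. Those levels rest on 55.1 fragments in the Lsd1-RIP and 22.0 in the IgG-RIP library. Its log2 ratio was 1.57 (interval 0.84 to 2.30), the tenth highest of 5920 genes. The 2 intervals of FPKM did not overlap.

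snoRNA:U3:54Aa (2R:17143521-17143693) had an FPKM of 8953 on 286 fragments in the Lsd1-RIP library and 3293 on 124 fragments in the IgG-RIP library. The interval of its log2 ratio, 1.44, ran from 1.13 to 1.75. snoRNA:U3:54Ab (2R:17145654-17145826) had the same values to every digit in both libraries. U3 copies are known as near-identical, so the division of fragments among them is uncertain and they are read as 1 observation rather than 3. Summed, U3 had an FPKM of 20552 on 628 fragments in the Lsd1-RIP and 7477 on 271 fragments in the IgG-RIP library, 2.75-fold higher. The loci in the tables are shorter than in the RefSeq table of Release 6, by 45 nt for snoRNA:U3:9B and 37 nt for each 54A copy. The U3 genes were the only ones of the 11 that overlapped no other gene listed above 0.

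RNaseMRP:RNA (3R:23730048-23730429, 382 nt) was the best measured small RNA. It had an FPKM of 633 (600 to 665) on 1507 fragments in the Lsd1-RIP library and 374 (351 to 397) on 1027 fragments in the IgG-RIP library. The log2 ratio of RNase MRP RNA was 0.76 (interval 0.64 to 0.87), or 0.43 above the offset. RNaseP:RNA (299 nt) had an FPKM of 209 (180 to 237) in the Lsd1-RIP and 179 (155 to 204) in the IgG-RIP library. Its log2 ratio of 0.22 (interval -0.06 to 0.49) lay below the offset, but the interval took the offset in. The FPKM intervals overlapped. RNase MRP and RNase P share most of their proteins, but their RNAs had ratio intervals that did not overlap each other.

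The pseudouridylation guide snoRNA:Psi28S-291 (3R:11223571-11223790, 220 nt) had an FPKM of 4852 (4582 to 5123) on 1285 fragments in the Lsd1-RIP library and 2979 (2782 to 3176) on 913 in the IgG-RIP library. Its log2 ratio was 0.70 (interval 0.58 to 0.83). snoRNA:Tudor-SN-a (311 nt) had an FPKM of 203 (178 to 228) in the Lsd1-RIP and 120 (102 to 138) in the IgG-RIP library (log2 ratio 0.75, interval 0.47 to 1.03). For both RNAs the FPKM intervals were apart and the ratio intervals lay wholly above 0.32. snoRNA:Psi28S-2566 (268 nt) had an FPKM of 46.0 on 33.4 fragments in the Lsd1-RIP library and 24.3 on 21.0 fragments in the IgG-RIP library. Its log2 ratio of 0.89 had an interval of 0.11 to 1.67, which took in the offset.

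The lowest of the 11 was scaRNA:MeU5-C46 (316 nt), named for a methylated C of the U5 spliceosomal RNA. It had an FPKM of 224 (198 to 250) on 304 fragments in the Lsd1-RIP library and 261 (236 to 287) on 421 fragments in the IgG-RIP library. Its log2 ratio was -0.22 (interval -0.44 to -0.01), which lay wholly below the offset although the FPKM intervals overlapped. The 2 snoRNAs of the Usp10 locus had few fragments. snoRNA:CG32479-a had 7 fragments in the Lsd1-RIP and 6 in the IgG-RIP library (log2 ratio 0.42), and snoRNA:CG32479-b had 6 in the Lsd1-RIP and 8 in the IgG-RIP library (-0.18). Both ratio intervals spanned 0 and more than 1 log2 unit on each side.

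**Figure D2:**
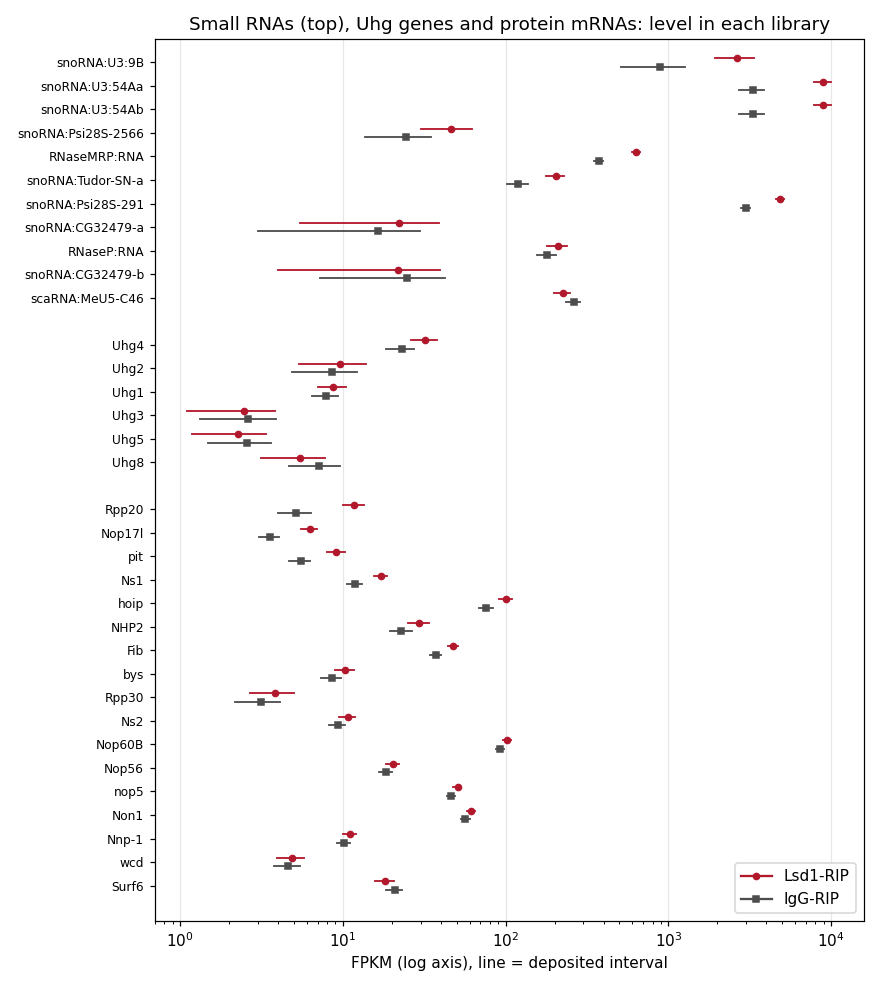
FPKM (x axis, log) of the 34 members with 5 or more approximate fragments in each library, Lsd1-RIP as circles above IgG-RIP as squares, with lines for the deposited interval. The U3 copies, RNaseMRP:RNA, snoRNA:Tudor-SN-a and snoRNA:Psi28S-291 have intervals that are apart, those of all 6 Uhg genes overlap, and FPKM of RNAs of unlike length cannot be ranked against each other.

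Of the 18 listed small RNAs, 15 lie inside the locus of another gene listed above 0. The library kit does not mark strand, so fragments of the RNA and of unspliced host transcript cannot be told apart. For the 8 such RNAs with 5 or more fragments in each library, the RNA and its containing gene were set side by side. snoRNA:Psi28S-291, at 0.70, lies in RpL3, a ribosomal protein gene of the large subunit whose log2 ratio was -0.29 (interval -0.38 to -0.21). RpL3 had an FPKM of 414 in the Lsd1-RIP and 508 in the IgG-RIP library, so RNA and host lay on opposite sides of 0. By approximate fragments RpL3 was at 0.01, also below the all-gene fragment median of 0.30.

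RNaseMRP:RNA, at 0.76, lies in the locus of CG10365, which had a log2 ratio of 0.00 and an FPKM of 2.48 in the Lsd1-RIP and 2.47 in the IgG-RIP library. snoRNA:Tudor-SN-a, at 0.75, lies in Tudor-SN, a gene for a nuclease-domain protein, which was at 0.35 (interval 0.24 to 0.47). The RNA's interval began at 0.47, just above the end of that of its host. By approximate fragments snoRNA:Tudor-SN-a was at 0.64 and Tudor-SN at 0.27, with no interval computed. snoRNA:Psi28S-2566, at 0.89, and its containing gene CG3902, at 0.36, had intervals that overlapped, and so did scaRNA:MeU5-C46, at -0.22, and CG1142, at -0.49. These 5 RNAs each had a higher ratio than the gene around them.

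The other 3 pairs ran the opposite way. RNaseP:RNA, at 0.22, lies in the locus of ATPsynC, the gene for subunit c of ATP synthase, which was at 0.63 (interval 0.53 to 0.74). By approximate fragments ATPsynC was at 0.30, near the all-gene fragment median, and RNaseP:RNA at 0.09. Without intervals for the fragment ratios, that pair is called apart by FPKM only. The 2 snoRNAs of the Usp10 locus, at 0.42 and -0.18, lie in a deubiquitinase gene that was at 0.75, with RNA intervals too wide to separate them from it. In FPKM these RNAs stood at unlike multiples of their host. snoRNA:Psi28S-2566 was 1.37 times CG3902 in the Lsd1-RIP and 0.94 times in the IgG-RIP library. RNaseMRP:RNA was 256 times CG10365 in the Lsd1-RIP and 151 times in the IgG-RIP library. RNA and host are of unlike length, so these multiples are not read as relative levels. By approximate fragments in the Lsd1-RIP library, snoRNA:Psi28S-2566 had 33.4 against 547 for CG3902, and RNaseMRP:RNA had 1507 against 50.1 for CG10365.

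**Figure D3:**
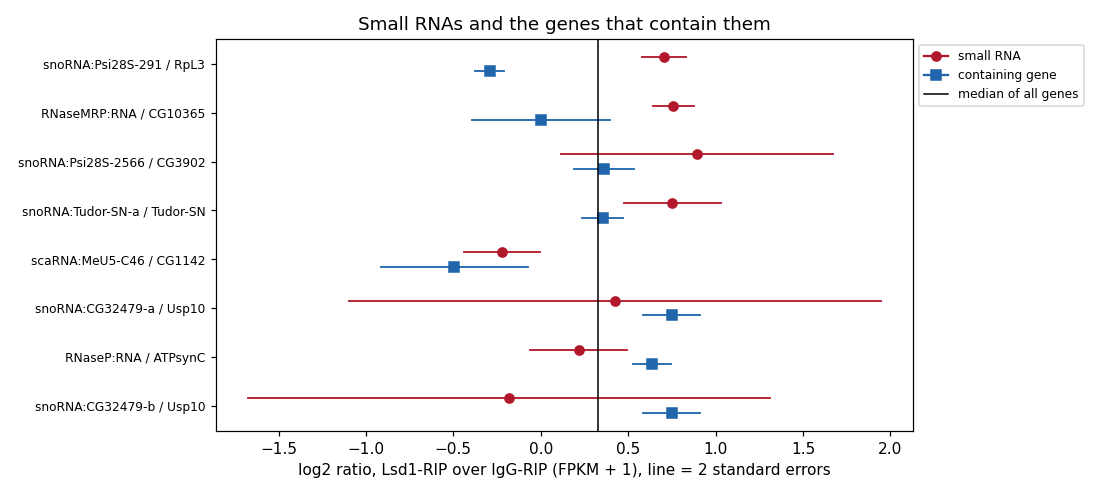
Log2 ratio (x axis, Lsd1-RIP over IgG-RIP, FPKM + 1) of 8 small RNAs (circles) and of the gene whose locus contains each (squares), with lines of 2 standard errors and a vertical line at the all-gene median of 0.32. The intervals are apart for snoRNA:Psi28S-291 with RpL3, RNaseMRP:RNA with CG10365, RNaseP:RNA with ATPsynC and, narrowly, snoRNA:Tudor-SN-a with Tudor-SN. This holds for ratios by FPKM, and intervals by approximate fragments were not computed.

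Of the 306 annotated small RNAs, 294 lie inside the locus of another gene, listed or not. Genes with 20 or more fragments in each library and a mean FPKM of 1 or more were compared by kind. The 30 ribosomal protein genes among them, which contain 77 of the RNAs, had a median log2 ratio of -0.18 and none was above 0.32. Their lowest were RpL15 at -0.98 and RpS7 at -0.97, genes of the large and of the small ribosomal subunit, named after their values were seen. By approximate fragments RpL15 was at -0.39 and RpS7 at -0.22, and the lowest were RpL14 at -0.52 and RpS12 at -0.43. The median by fragments was -0.05, again with 0 of 30 above the all-gene fragment median.

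The 74 other containing genes had a median of 0.45, and 50 of 74 were above 0.32. At least 2-fold higher were 3 of them, mask at 1.40, the chromatin remodeller gene kis at 1.36 and CG45050 at 1.16, again named after their values were seen, against 1.62% of the 5920 genes. With the offset removed CG45050 was at 0.84. By approximate fragments all 3 were under 2-fold, at 0.98 for mask, 0.82 for kis and 0.88 for CG45050, and 3 other genes were past it, tou at 1.18, anchor at 1.14 and mtgo at 1.01. The loci of these 74 genes were longer, with a median of 6586 nt, against 3085 nt over all genes measured to the same minimum and 1766 nt for the ribosomal protein genes. The part of length in these ratios was not tested.

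The Uhg genes are noncoding, and their spliced RNA is known as a by-product of making the snoRNAs in their introns. 6 of the 7 annotated Uhg genes were listed, Uhg7 standing at 0 in both libraries, and the 7 loci contain 49 of the small RNAs. None of those 49 had a value above 0. The 6 genes had a median log2 ratio of 0.03, and 1 of 6, Uhg4, was above 0.32. The deposited intervals overlapped between the libraries for all 6.

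Uhg4 had an FPKM of 31.9 (26.1 to 37.7) on 122 fragments in the Lsd1-RIP library and 23.0 (18.5 to 27.5) on 104 in the IgG-RIP library (log2 ratio 0.46, interval 0.09 to 0.83). Its locus overlaps that of CG8078. Taking the fragments of both genes together gave a log2 ratio of 0.05, against 0.33 for Uhg4 alone. Uhg1 had an FPKM of 8.74 in the Lsd1-RIP and 7.91 in the IgG-RIP library (log2 ratio 0.13, interval -0.22 to 0.47). It overlaps CG6424, and the fragments of both summed to a log2 ratio of 0.49, against 0.02 alone. For both genes the value alone and the summed value lie on opposite sides of the all-gene median by fragments, 0.30.

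Uhg2 had an FPKM of 9.61 in the Lsd1-RIP and 8.59 in the IgG-RIP library, a log2 ratio of 0.15. Uhg8, which had 5.46 in the Lsd1-RIP and 7.11 in the IgG-RIP library, was the lowest at -0.33 (interval -1.01 to 0.35). Uhg3 was at -0.06 with 13.2 fragments in the Lsd1-RIP and 16.7 in the IgG-RIP library, and Uhg5 at -0.12 with 17.3 in the Lsd1-RIP and 22.9 in the IgG-RIP library. The ratio intervals of these 4 genes spanned 0. Those of all 6 listed Uhg genes took in the offset of 0.32, so none is separated from it.

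The 17 protein mRNAs had a median log2 ratio of 0.22, below the all-gene median, with 7 of 17 above it. By approximate fragments the median was 0.14, and 4 of 17 lay above the all-gene median of 0.30. Other listed genes overlap Surf6, Ns2, nop5, pit, Nop17l and Rpp20. The 4 above the median were Rpp20, Nop17l, pit and Ns1, which also had the 4 highest log2 ratios by FPKM. At least 2-fold higher was 1 of 17 (Rpp20), against 1.62% of the 5920 genes, and Rpp20 was at 0.72 with the offset removed.

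The core proteins of the box C/D particle lay near the offset or below it. Fib, fibrillarin, the methyltransferase of the particle, had an FPKM of 47.4 (44.1 to 50.7) in the Lsd1-RIP and 37.1 (34.4 to 39.9) in the IgG-RIP library (log2 ratio 0.34, interval 0.20 to 0.49). hoip, the RNA-binding protein that recognises the kink-turn of the box C/D motif, had 100.4 in the Lsd1-RIP and 75.8 in the IgG-RIP library, a log2 ratio of 0.40. The paired scaffold proteins were lower: nop5 had an FPKM of 50.6 in the Lsd1-RIP and 46.0 in the IgG-RIP library (0.13), and Nop56 had 20.4 in the Lsd1-RIP and 18.4 in the IgG-RIP library (0.14). The intervals of nop5, 0.02 to 0.25, and Nop56, -0.03 to 0.31, lay wholly below the offset. For Fib and hoip the FPKM intervals were apart between the libraries, while both ratio intervals took in the offset.

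The box H/ACA core proteins among the members were Nop60B and NHP2, and other genes of snoRNP core and assembly are given below. Nop60B, the pseudouridine synthase, had an FPKM of 102 in the Lsd1-RIP and 92.2 in the IgG-RIP library. Its log2 ratio was 0.15 (interval 0.03 to 0.26). NHP2, a small RNA-binding core protein, had 29.3 in the Lsd1-RIP and 22.9 in the IgG-RIP library (log2 ratio 0.34, interval 0.05 to 0.64). The H/ACA guide snoRNA:Psi28S-291, at 0.70, thus had a ratio interval apart from that of Nop60B and overlapping that of NHP2. Nop17l, related to a yeast assembly factor of box C/D particles, had an FPKM of 6.25 (5.52 to 6.98) in the Lsd1-RIP and 3.55 (3.04 to 4.06) in the IgG-RIP library. Its log2 ratio of 0.67 (interval 0.45 to 0.89) lay wholly above the offset. It overlaps DNApol-zeta, and the fragments of both summed to 0.67.

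Genes of large subunit assembly were mixed. pit, a DEAD-box helicase of the nucleolus, had an FPKM of 9.12 (7.98 to 10.3) in the Lsd1-RIP and 5.50 (4.70 to 6.31) in the IgG-RIP library (log2 ratio 0.64, interval 0.40 to 0.88). The GTPase genes Ns1 and Ns2, of the nucleostemin family, stood on either side of the offset. Ns1 had 17.1 in the Lsd1-RIP and 11.9 in the IgG-RIP library (0.49, interval 0.30 to 0.68), and Ns2 had 10.7 in the Lsd1-RIP and 9.29 in the IgG-RIP library (0.18, interval -0.03 to 0.40). Those ratio intervals overlapped, so the pair is not separated.

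Surf6 was the lowest protein member, with an FPKM of 18.2 (15.8 to 20.6) in the Lsd1-RIP and 20.8 (18.4 to 23.2) in the IgG-RIP library. Its log2 ratio was -0.18 (interval -0.42 to 0.06), wholly below the offset. Nnp-1 had an FPKM of 11.1 in the Lsd1-RIP and 10.2 in the IgG-RIP library (0.11), and Non1, a gene for a nucleolar GTPase, had 61.4 in the Lsd1-RIP and 56.6 in the IgG-RIP library (0.11). Their intervals also lay below the offset, at -0.06 to 0.28 and -0.01 to 0.24. Of the small subunit genes, bys, the bystin gene, was at 0.25 and wcd, a component of the U3 particle, at 0.06. bys had an FPKM of 10.3 in the Lsd1-RIP and 8.52 in the IgG-RIP library, and wcd had 4.88 in the Lsd1-RIP and 4.63 in the IgG-RIP library. The wcd mRNA, at 0.06 (interval -0.25 to 0.37), and the U3 RNA, at 1.44 or more in each copy, had intervals far apart.

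Of the RNase P and MRP protein genes, 1 was past 2-fold. Rpp20 (X:19744431-19745747) had an FPKM of 11.8 (9.98 to 13.6) on 173 fragments in the Lsd1-RIP library and 5.18 (4.01 to 6.35) on 78.2 in the IgG-RIP library, 2.27-fold higher. Its log2 ratio was 1.05 (interval 0.71 to 1.39), rank 76 of 5920 genes. It overlaps CG33932, which had no fragments in Lsd1-RIP and 12.5 in IgG-RIP. Fragments of both genes together gave a log2 ratio of 1.02, against 1.24 for Rpp20 alone. Rpp30 had an FPKM of 3.83 in the Lsd1-RIP and 3.14 in the IgG-RIP library (log2 ratio 0.22, interval -0.26 to 0.71). The ratio interval of Rpp30 just met that of Rpp20.

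**Figure D4:**
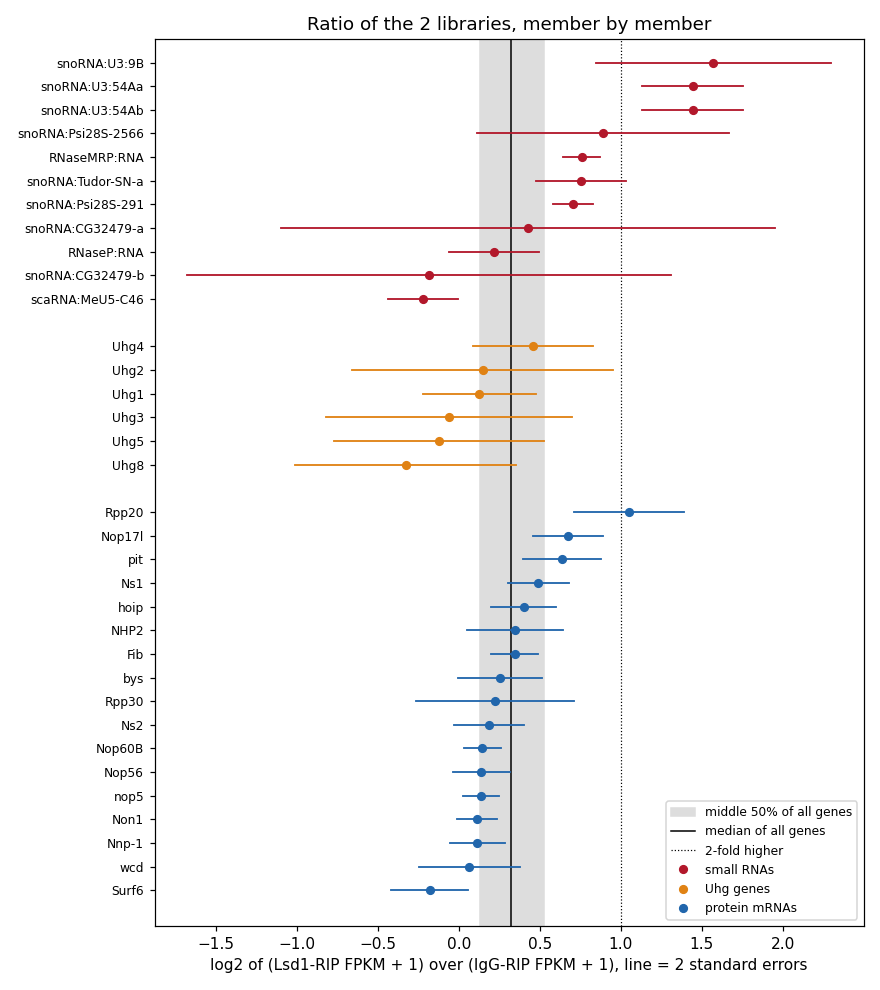
Log2 ratio (x axis, Lsd1-RIP over IgG-RIP, FPKM + 1) of the 34 members with 5 or more fragments in each library, with lines of 2 standard errors, the all-gene median of 0.32 (solid line), the middle 50% of 6025 genes (grey) and 2-fold (dotted). The U3 copies and Rpp20 lie past the dotted line (Rpp20 falls short of it once the offset is removed), and most Uhg genes and protein mRNAs lie left of the solid line.

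Other genes of ribosome assembly and RNA processing were taken from lists in which 50 symbols were found and 25 were not. A symbol that was not found can belong to a gene listed under another name, so it is not read as a missing gene. Of the 50, 48 had a mean FPKM of 1 or more. Their median log2 ratio was 0.20, with 14 of 48 above 0.32, 1 at least 2-fold higher, against 2.12% of all 6025 genes, and 0 lower, against 0.697%. By list, the medians were 0.12 for snoRNP core and assembly (7 genes), 0.24 for RNA polymerase I (5), 0.05 for the small subunit (11), 0.23 for the large subunit (9), 0.14 for the exosome and RNA decay (11) and 0.26 for other nucleolar proteins (5). All 6 medians lay below the all-gene median.

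Among these genes with 20 or more fragments in each library, the highest were Bka at 1.04, Dbp73D, a DEAD-box helicase gene, at 0.69, and Rrp6, a nuclease gene of the nuclear exosome, at 0.64. Bka, the gene past 2-fold, had an FPKM of 7.96 in the Lsd1-RIP and 3.36 in the IgG-RIP library, and its log2 ratio was 0.72 with the offset removed. The lowest were vito, a nucleolar protein gene, at -0.72, CG4038 at -0.28 and CG7637 at -0.23. CG4038 and CG7637 came from the list of snoRNP core and assembly. The interval of CG4038, -0.57 to 0.01, lay wholly below the offset, and that of CG7637, -0.89 to 0.44, took it in. vito had an FPKM of 2.95 in the Lsd1-RIP and 5.50 in the IgG-RIP library, with deposited intervals apart. Rrp6, CG4038 and CG7637 overlap other listed genes, so their fragments are less certainly their own. Nopp140, singled out afterwards for its likeness in name to the unmatched symbol Nop140, had 25.2 in the Lsd1-RIP and 21.2 in the IgG-RIP library, a log2 ratio of 0.23.

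**Figure D5:**
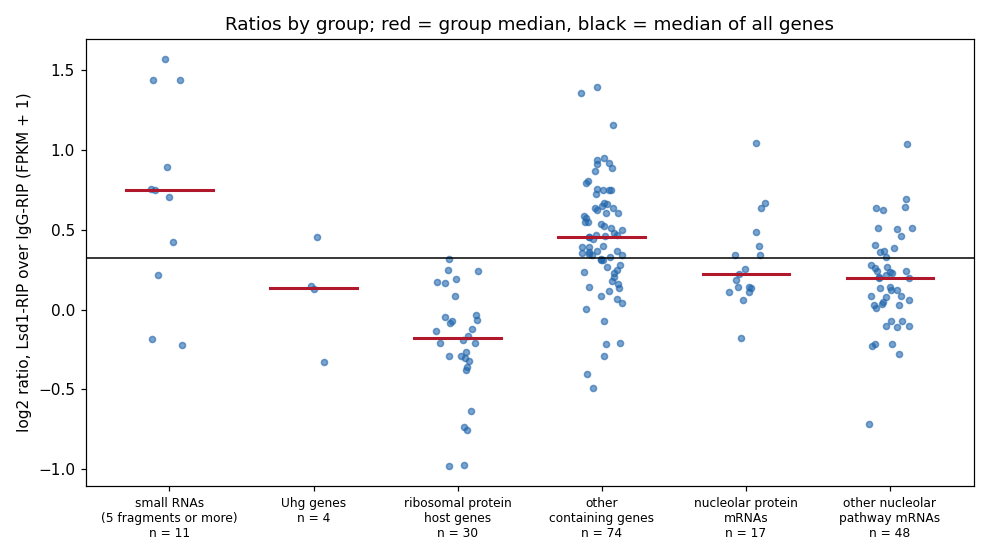
Log2 ratio (y axis, Lsd1-RIP over IgG-RIP, FPKM + 1) of each gene (points) in 6 groups, with the group median (red) and the all-gene median of 0.32 (black). The small RNAs have a median of 0.75, the Uhg genes with 20 fragments 0.14, the ribosomal protein host genes -0.18, the other containing genes 0.45, the nucleolar protein mRNAs 0.22 and the other nucleolar pathway mRNAs 0.20.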

How the data were processed

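RNA from 2 immunoprecipitations of 1 ovary lysate was sequenced without poly(A) selection and, per the labels' protocols, with a TruSeq RNA v2 kit, which does not mark strand. The deposited tables hold FPKM per gene with lower and upper bounds. Per the submitters' processing notes, the genome build was dm6 and the tools were Cufflinks, SAMtools 0.1.18.0 and Bowtie2 2.0.6.0. What each tool did, which Cufflinks version and which annotation were used is not given in the sources used here. Coordinates are those of the files.

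From the deposited FPKM, log2 ratios were computed with a pseudocount of 1, for genes with a mean FPKM of 1 or more. Intervals are 2 standard errors from the deposited bounds, taken to lie 2 standard deviations from the value. Approximate fragments per gene are the squared ratio of FPKM to its standard deviation. They sum to 2494964 in the Lsd1-RIP and 2661721 in the IgG-RIP library, and the fragment ratio divides fragments by those sums. They are not read counts, and neither they nor the intervals cover variation between RIPs. For some genes the log2 ratios by FPKM and by fragments differ widely, as for RpS7 (-0.97 and -0.22) and kis (1.36 and 0.82). The reason was not tested. The 25 loci marked HIDATA were left out. With 1 library per group, nothing was tested between groups. The calculations were tested on simulated Poisson counts with bounds built by the same formula. That checks the arithmetic only, not whether the deposited bounds follow the formula.

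Members and lists were chosen with earlier results of these data known. Named are every protein member, every Uhg gene with a mean FPKM of 1 or more, every small RNA with 5 or more fragments in a library, the 4 others with the largest FPKM (snoRNA:lola-b, snoRNA:lola-c and snoRNA:Or-ACA9 were added after their values were seen), the genes containing them, and the 3 highest and 3 lowest of the other lists with 20 or more fragments in each library. Containing genes were found by coordinates without strand. Sequences were not used here. Python 3.11.15 with pandas 2.3.3 and numpy 2.4.6 was used.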

Additional observations from a re-analysis of the deposited data

How the results depend on the processing

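The median log2 ratio of the small RNAs was 0.75. It stood at 0.43 with ratios centred on the all-gene median, and at 1.44 with members overlapping another listed gene left out, which leaves only the 3 U3 copies. It was 0.70 with the U3 copies summed and 0.76 with 20 or more fragments in each library, both alternatives chosen after seeing the data. The protein median of 0.22 became -0.10 when centred. The Uhg median of 0.03 has no settled sign: it was -0.29 centred, -0.12 by fragments, -0.06 with each library scaled to the same sum (TPM) or with overlapping members left out, and 0.14 with a mean FPKM of 5 or more. Members at least 2-fold higher numbered 9 of 40. They were 5 of 35 without a pseudocount among those above 0 in both libraries. By fragments they were 4 of 34, and with overlapping members left out 3 of 17. With 5 or more fragments in each library they were 4 of 34, and when centred 8 of 40, where Rpp20 lost its call at 0.72. Members at least 2-fold lower numbered 1 of 40, but 0 under the first 4 of these alternatives. The alternatives keep different members, and no all-gene share was computed for the first 3, so these counts are not compared. When centred, 22 of 34 named members moved beyond their interval and 12 changed sign, namely nop5, Nop56, Nop60B, Nnp-1, Non1, Ns2, bys, wcd, Rpp30, RNaseP:RNA, Uhg1 and Uhg2. Of these wcd also changed sign by fragments (-0.05) and with libraries scaled to the same sum (-0.02). None of the 4 members past 2-fold with 5 or more fragments in each library changed sign under the alternatives run. No paired analysis was possible because each group held 1 library. Depth limits the 7 small RNAs with under 5 fragments in a library, for which no difference was detectable.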
